A study of Mus musculus with 30 samples.

Results

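Integrin, focal adhesion and YAP/TEAD genes were followed in RNAseq libraries of mouse muscle cells grown on plastic or on gelatin. The set holds 42 of the 30205 genes to which the files' transcripts were assigned: 12 integrin alpha subunits, 4 integrin beta subunits, the β1 tail partner Itgb1bp2, 17 components of focal adhesions and 8 genes of YAP and TEAD signalling. The genes were chosen by name, with earlier results of these data known, and no measured value entered that rule. There were 30 libraries in 10 groups of 3. Of these, 21 came from C2C12 cells, a line of mouse myoblasts that fuse into myotubes after serum withdrawal: myoblasts on plastic at day 0, and myotubes at day 4 and day 7 on plastic, on unpatterned gelatin and on patterned gelatin, a hydrogel molded with parallel grooves. The other 9 came from primary myoblasts isolated from hindlimb muscle of 8-week-old C57/Bl6J mice, at day 0 on a surface labelled plastic (the methods describe matrix-coated dishes) and as myotubes on patterned gelatin at day 4 and day 7. The methods name 3 mice for the primary cells and 3 separate cultures for each condition. The study used 2 batches of C2C12 cells, and the labels do not say which of them these libraries come from. Cultures at day 4 and day 7 were briefly trypsinised to enrich for myotubes, so time and enrichment cannot be told apart. In the primary cells the surface changed together with the day, and these cannot be told apart either. The methods describe DMEM with fetal bovine serum for C2C12 myoblasts. For primary myoblasts they describe Ham's medium with more of this serum and with basic fibroblast growth factor. Once plated on patterned gelatin, primary cells were treated as the C2C12 cells were.

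Integrins are pairs of an alpha and a beta subunit that bind the matrix outside the cell and, through adaptors, actin inside it. Talin and kindlin bind the beta tail and activate the receptor, vinculin, zyxin and tensin couple it to actin, and the ILK, PINCH and parvin complex together with focal adhesion kinase (Ptk2), Src and paxillin relays the signal. In skeletal muscle the main laminin receptor is α7β1, and the β1 subunit exists as a muscle splice form, β1D, whose cytoplasmic end differs from that of the common form, β1A. YAP and TAZ (Wwtr1) are coactivators that respond to adhesion and tension. They act through TEAD factors on genes such as Ccn1, Ccn2 and Amotl2, and LATS kinases hold them in the cytoplasm.

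The annotation holds 2 ends of the β1 tail. Itgb1 (ENSMUSG00000025809.15) lies on the plus strand at chr8:128685654-128733200 (GRCm38, also named mm10). Transcript Itgb1-201, of 16 exons and 3815 bases, ends its coding sequence in the exon that starts at base 128732023. Transcript Itgb1-204 is a partial model of 4 exons and 711 bases that carries an exon of 81 bases, chr8:128726983-128727063, with a stop codon of its own, ahead of the exon in which Itgb1-201 ends. Both coding stretches, of 66 and 75 bases with the stop, are printed from the genome's plus strand because the level of Itgb1 alone does not show which end its transcripts carry. Capitals mark the stop codon.
Itgb1-201 last coding stretch, chr8:128732023-128732088: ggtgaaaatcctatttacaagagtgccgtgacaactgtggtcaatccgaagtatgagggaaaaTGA
Itgb1-204 last coding stretch, chr8:128726983-128727057: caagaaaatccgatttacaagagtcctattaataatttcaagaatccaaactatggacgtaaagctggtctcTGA

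Total estimated counts ran from 13.1 to 59.4 M per library, with a median of 27.3 M, and the 42 genes held 0.647% to 1.02% of them. All 11 muscle markers averaged 1 TPM or more in every group (TPM, transcripts scaled for length and library size). Markers of dividing cells summed to 1050 to 1210 TPM in C2C12 myoblasts and to 240 to 339 TPM in primary myoblasts. Of the 8 fibroblast markers, 4 (Ly6a, Pdgfrb, Dcn and Pdgfra) averaged 1 TPM or more in every C2C12 group, and the list summed to 173 to 423 TPM per library there against 4.65 to 16.9 TPM in primary cells, while Lum, Thy1, Dpt and Col15a1 stayed under 1 TPM in every library. Markers of endothelial, blood and Schwann cells summed to no more than 21.7, 5.94 and 4.25 TPM, and Adgre1 and Cd52 were at 0 in every library. The primary libraries of replicate number 3 stood apart at all 3 time points. Replicate 3 was the lowest of the 3 libraries on every day in 20 of the 42 genes and the highest in 4, whereas replicates 1 and 2 were the lowest on every day in none and the highest in 4 and 1. No share over all genes stands beside these counts, so they do not show whether this is particular to the 42 genes. In bulk RNA, fewer cells of a type and less RNA per cell cannot be told apart.

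Levels of different genes were compared in TPM. Itgb1 was the most abundant of the 42 genes in all 8 myotube groups, with means of 709 to 969.5 TPM, and Itga7, its laminin-binding partner, ranked next in each of them. In C2C12 myoblasts Zyx, which encodes the stress-fibre protein zyxin, ranked first at 495 ± 40.2 TPM (SD, n = 3), above Itgb1 at 457 ± 31.1 TPM, a gap smaller than the SD of Zyx. In primary myoblasts the laminin-binding subunit Itga6 ranked first at 540.01 ± 235 TPM, and its libraries overlapped those of Zyx at 462 ± 25.6 TPM. Mean levels over the 10 groups ran from 184 to 306 TPM for Vcl (vinculin) and from 135 to 285 TPM for Tln1 (talin). At the low end, the collagen-binding subunit Itga2 reached at most 0.0308 TPM and the RGD-binding subunit Itga8 at most 0.368 TPM as group means. Of the other collagen-binding subunits, Itga10 and Itga11 averaged above 1 TPM in every C2C12 group, while Itga1 stayed between 0.166 and 0.728 TPM over all groups. A gene's level is the sum over its transcripts. For Itga6 the protein-coding model held 52.0% of the gene's TPM in primary myoblasts and 24.7% in C2C12 myoblasts.

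**Figure D1:**
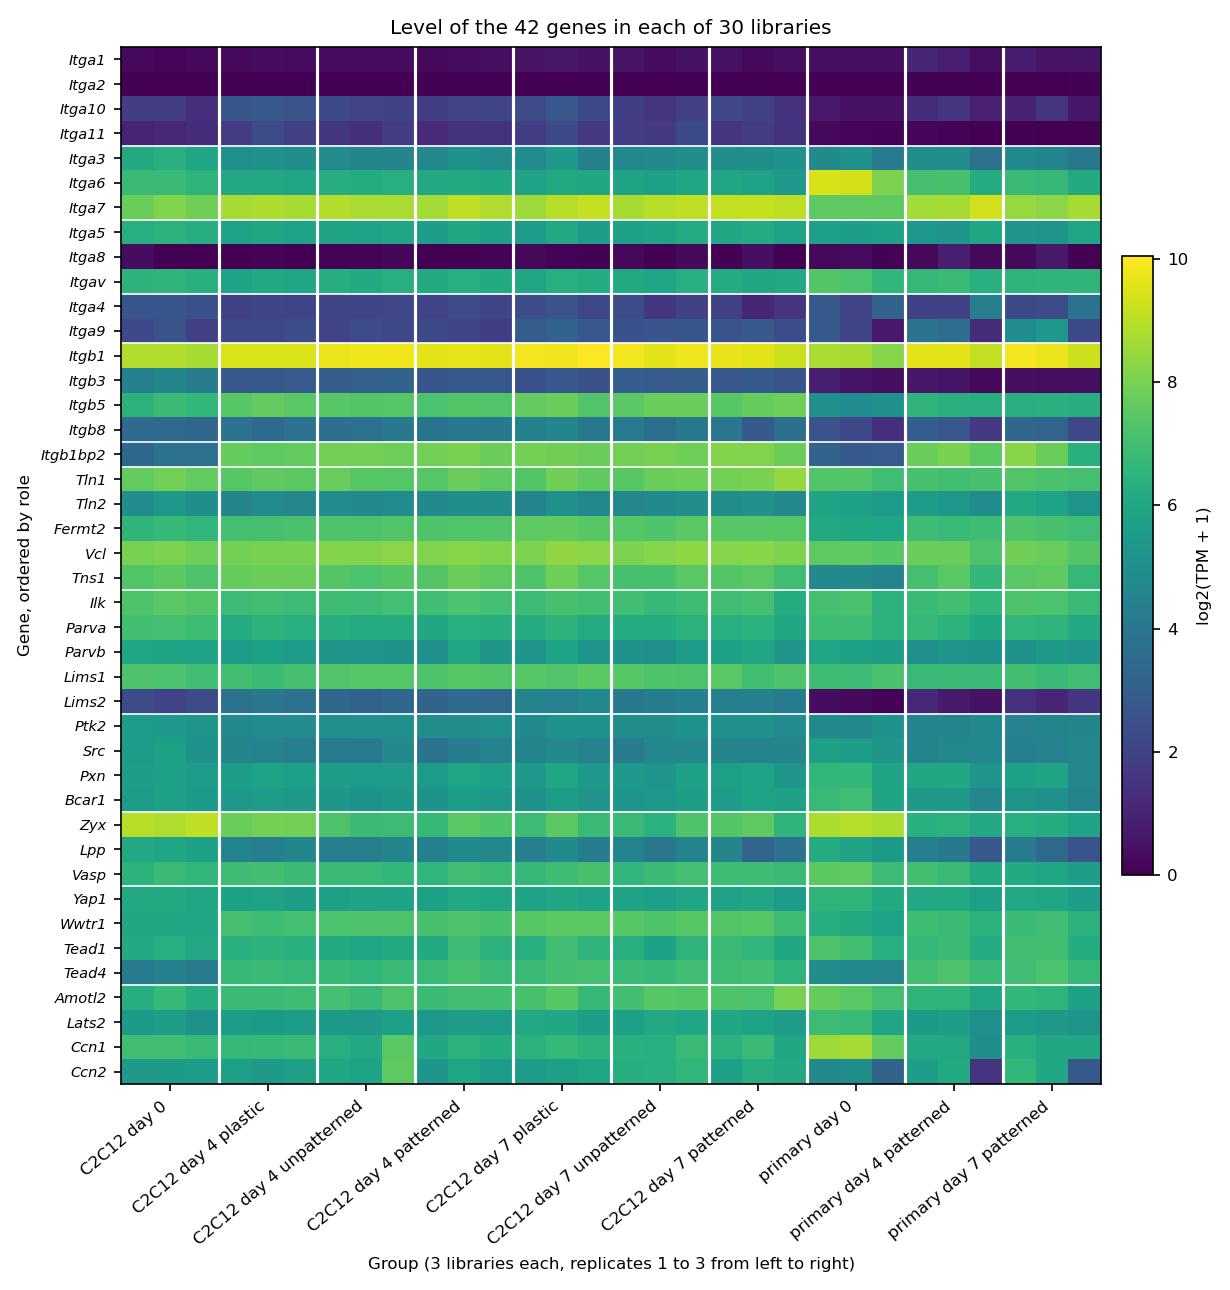
Level of each of the 42 genes (rows, ordered by role) in each of 30 libraries (columns, 3 per group), as log2(TPM + 1). Itgb1 and Itga7 are the highest 2 rows in every myotube group, Zyx and Itgb1 in C2C12 day 0, and Itga2 is near 0 throughout.

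The share of Itgb1 TPM given to Itgb1-204, the model with the 81-base exon, separated myoblasts from myotubes without overlap. It was 2.07%, 2.69% and 1.74% in the 3 libraries of C2C12 myoblasts. At day 4 it was 28.0%, 27.0% and 26.4% on plastic. On unpatterned gelatin it was 25.4%, 25.3% and 27.0%, and on patterned gelatin 28.7%, 29.4% and 29.3%, so that the C2C12 libraries on patterned gelatin lay above the other C2C12 libraries of that day. At day 7 the order was another, with 33.1%, 33.1% and 34.3% on plastic above every library on unpatterned gelatin (29.0% to 31.2%) and on patterned gelatin (27.9% to 32.5%). In primary cells the share went from 5.26%, 4.04% and 3.09% in myoblasts to 26.6%, 31.4% and 33.8% at day 4 and 34.6%, 38.3% and 37.8% at day 7. Itgb1-201 held 93.4% to 96.1% in the myoblast libraries and 60.6% to 74.2% in the myotube libraries. No test was run on these shares. Because Itgb1-204 is a short partial model whose other exons overlap those of Itgb1-201, the share is one of TPM as Kallisto assigned it and not the inclusion of the exon.

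**Figure D2:**
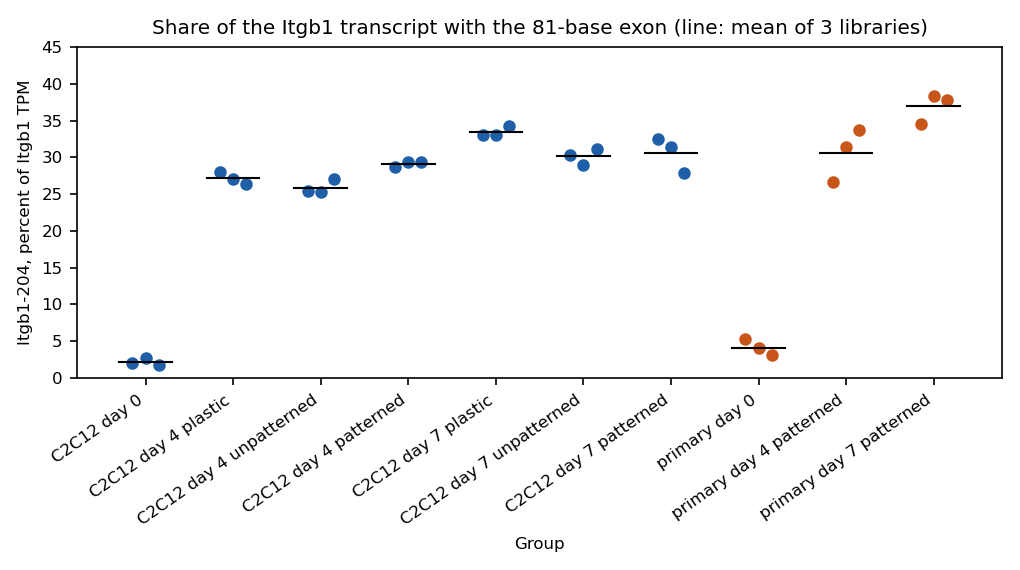
Percent of Itgb1 TPM assigned to Itgb1-204 in each library (points) of the 10 groups. The libraries of C2C12 day 0 lie between 1.74% and 2.69% and those of primary day 0 between 3.09% and 5.26%, whereas the lowest myotube library is at 25.3%.

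The first comparison asks how these genes change as C2C12 myoblasts become myotubes on plastic, from day 0 to day 4. Of 40 genes tested, 18 were higher and 11 lower at day 4 (edgeR quasi-likelihood test, Benjamini-Hochberg adjusted p under 0.05 over all genes). The background was high, since 58% of all 14844 genes tested passed, 30.2% higher and 27.7% lower. The median log2 fold change was 0.27 over the 40 genes and 0.00 over all genes. Itga2 and Itga8 had too few counts to be tested. Leaving out 1 library at a time kept 25 of the 29 calls. Tln2 was lost in 5 of these fits (adjusted p up to 0.289, without day 0 replicate 2), Itga5 in 4, Itgb8 in 3 and Itga4 (log2 -0.59 ± 0.20) without day 4 replicate 1 (adjusted p = 0.0574). Unscaled log2(TPM + 1) moved the median of all genes by -0.15 and gave 11 higher and 14 lower, and after scaling by TMM it gave 15 higher and 11 lower.

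Among the integrin genes, Itgb1bp2 (ENSMUSG00000031312.5), which encodes melusin, a muscle protein that binds the β1 tail, rose most. Its counts per 1 M reads after TMM scaling (CPM) were 5.37, 7.06 and 8.28 at day 0 and 149, 129 and 146 at day 4 on plastic, so the groups were far apart (log2 4.36 ± 0.13 SE, a 20.5-fold difference, adjusted p = 1.51e-15). Itga7 rose from 470.1, 569 and 545 CPM to 1104, 1094 and 1095 CPM (log2 1.05 ± 0.12, adjusted p = 3.01e-07). Its partner Itgb1 rose by less, from between 886 and 929.97 CPM to between 1243 and 1312 CPM (log2 0.50 ± 0.08, adjusted p = 2.33e-05). The collagen-binding subunits Itga10 and Itga11 rose from low levels (log2 1.65 ± 0.17 and 1.48 ± 0.24), and so did Itgb5, a vitronectin-binding partner of αv (1.06 ± 0.14). Itgb3, another partner of αv, fell from 64.2, 70.8 and 60.3 CPM to 22.3, 22.3 and 23.8 CPM (log2 -1.52 ± 0.07, adjusted p = 1.82e-12). These beta partners of αv moved in opposite directions, while Itgav itself fell slightly (log2 -0.36 ± 0.09). Itga3, which pairs with β1 on laminin, fell by 0.91 on the log2 scale, and Itga6, also laminin-binding, was at 0.04 ± 0.09 in gene counts and did not pass (adjusted p = 0.72). In TPM it went from 103 ± 10.6 to 64.4 ± 3.7 TPM, and the limma test on log2(TPM + 1) scaled by TMM called it lower (log2 -0.47, adjusted p = 0.00017), while the share of its TPM in the protein-coding model was 24.7% at day 0 and 38.7% at day 4. Itga9, a receptor subunit for tenascin and osteopontin, rose from 0.907, 1.16 and 0.728 CPM to 3.08, 2.84 and 3.47 CPM in gene counts (log2 1.73 ± 0.15). Its TPM, in which transcript length is taken out, was 3.79 ± 1.2 at day 0 and 3.78 ± 0.414 at day 4, and a limma test on log2(TPM + 1) scaled by TMM did not call it (log2 0.18, adjusted p = 0.35).

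Among the focal adhesion components, the paralogs of the PINCH adaptor behaved differently. Lims2 (PINCH-2) rose from 3.29, 2.4 and 3.5 CPM to 12.4, 13.9 and 12.2 CPM (log2 2.07 ± 0.14, adjusted p = 1.4e-10), while Lims1 (PINCH-1), at 141 ± 13.2 and 125 ± 9.84 TPM on the 2 days, did not pass (log2 -0.15 ± 0.10, adjusted p = 0.228). Zyx fell from 628, 553 and 744 CPM to 337, 359 and 359 CPM (log2 -0.87 ± 0.22, adjusted p = 0.00181), and Lpp, of the same LIM-domain family, fell by 1.26 on the log2 scale. Vasp, the actin polymerisation factor that zyxin binds, rose (log2 0.49 ± 0.11). The kinases Src (log2 -1.03 ± 0.09) and Ptk2 (-0.42 ± 0.07) fell, and so did Parva (-0.53 ± 0.09), the parvin of most tissues. Of the linkers, Tns1, Fermt2 (kindlin-2) and Vcl rose by 0.50, 0.41 and 0.23 on the log2 scale. Tln1 was at 0.05 ± 0.11 (adjusted p = 0.729) and Tln2, the talin enriched in striated muscle, at -0.22 ± 0.09. The summed TPM of dividing-cell markers went from 1050 to 1210 at day 0 to 115 to 148 at day 4, and its part in these changes was not tested.

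Tead4 led the YAP and TEAD genes. It rose from 20.8, 22.5 and 22.3 CPM to 154, 151 and 153 CPM, a 6.97-fold difference (log2 2.80 ± 0.08). Wwtr1 rose from between 153 and 168 CPM to between 346 and 403 CPM (log2 1.26 ± 0.08, adjusted p = 5.33e-11), whereas its paralog Yap1 was at -0.17 ± 0.08 (adjusted p = 0.0602) and Tead1 at 0.49 ± 0.23 (adjusted p = 0.0734). Of the regulators and targets, Amotl2 (log2 0.73 ± 0.11) and Lats2 (0.41 ± 0.09) rose. The secreted targets did not pass, Ccn1 being at 0.02 ± 0.23 and Ccn2 at 0.30 ± 0.32.

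**Figure D3:**
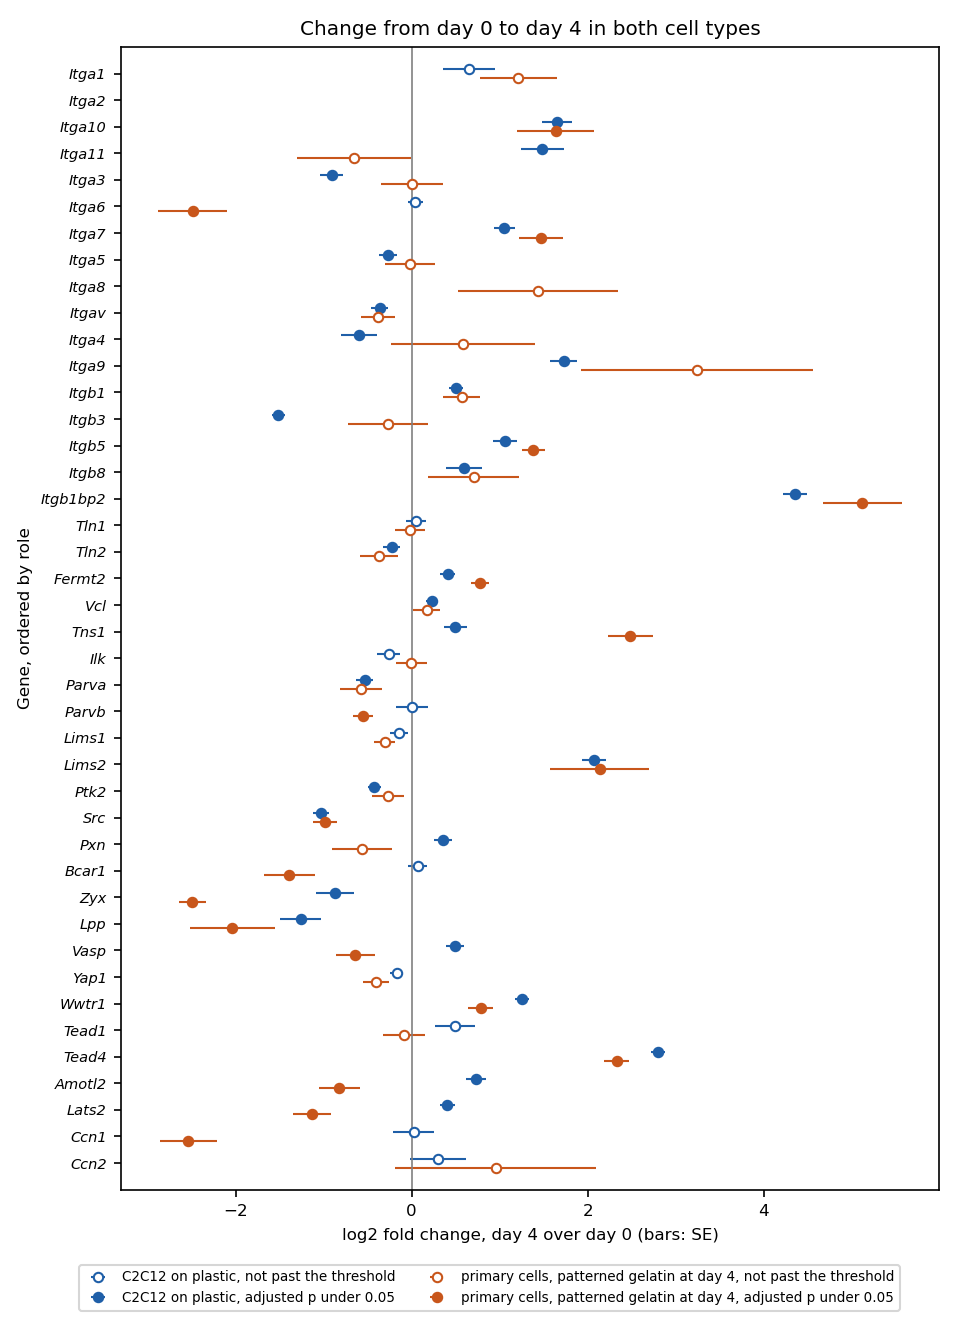
Log2 fold change from day 0 to day 4 of each gene (rows, ordered by role) in C2C12 cells on plastic (blue) and in primary cells (orange, on patterned gelatin at day 4), with SE as bars and filled points where the adjusted p was under 0.05. Itgb1bp2 (4.36 and 5.12) and Tead4 (2.80 and 2.33) lie to the right in both cell types, and Zyx (-0.87 and -2.49) and Lpp (-1.26 and -2.03) to the left in both.

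Between day 4 and day 7 on plastic, 3 of the 40 genes were higher and 8 lower, with 14.8% of all genes passing, 6.47% higher and 8.37% lower. In gene counts Itga9 rose further, to 10.3, 10.6 and 9.04 CPM (log2 1.67 ± 0.12, adjusted p = 8.51e-07). Its TPM, which had not risen between day 0 and day 4, was 6.94 ± 1.32 at day 7. Lims2 rose to 20.1, 16.4 and 21.5 CPM (log2 0.60 ± 0.12) and Wwtr1 by 0.25 on the log2 scale. Zyx fell again, to 157, 219 and 144 CPM (log2 -1.0 ± 0.22, adjusted p = 0.00491), and Itgb3 to 15.5, 16.6 and 15.2 CPM (log2 -0.52 ± 0.08). The other genes called lower were the integrin subunits Itga10 (-0.56 ± 0.16), Itga3 (-0.39 ± 0.13), Itga5 (-0.34 ± 0.10) and Itga6 (-0.31 ± 0.09) and the adaptors Bcar1 (-0.37 ± 0.11) and Pxn (-0.34 ± 0.10). Of the 11 calls 4 held without any 1 library, those on Itga9, Lims2, Zyx and Itgb3, and the count was 4 without day 7 replicate 1. Of the fibroblast markers, Ly6a (log2 -0.61, adjusted p = 0.000472) and Pdgfrb (-0.57, 0.0146) were lower at day 7. Dcn and Pdgfra did not fall, with means of 58.4 and 2.56 TPM at day 4 and 65 and 3.07 TPM at day 7. The list summed to 271.5 to 289.6 TPM at day 4 and 172.9 to 270.3 TPM at day 7. The part of these markers in the changes was not tested. Unscaled log2(TPM + 1) moved the median of all genes by 0.16 and gave 9 genes higher and 1 lower, whereas after scaling by TMM it gave 3 higher and 4 lower. Of the genes that had risen by day 4, Itgb1bp2 was at 0.03 ± 0.11, Itga7 at -0.08 ± 0.12, Itgb1 at 0.13 ± 0.08 and Tead4 at 0.06 ± 0.08 between day 4 and day 7, and none of the 4 passed.

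The next comparisons ask what gelatin changes at a fixed day. Those of 1 day share their plastic libraries, which are also those of the time comparisons. At day 4, 5 of 40 genes were lower on unpatterned gelatin than on plastic and none was higher, against 7.89% of all genes passing, 4.02% higher and 3.87% lower. On patterned gelatin 4 were lower and none higher, against 3.55%, 2.1% higher and 1.46% lower. Zyx, Lims2 and Itga10 were called in both. Zyx read 337, 359 and 359 CPM on plastic, 206, 162 and 161 on unpatterned gelatin and 150.2, 227 and 210.3 on patterned gelatin, so that no library on gelatin reached the lowest on plastic (log2 -1.0 ± 0.22, adjusted p = 0.0116, and -0.84 ± 0.22, adjusted p = 0.0384). Lims2 read 12.4, 13.9 and 12.2 CPM on plastic, 8.59, 7.33 and 8.47 on unpatterned and 7.68, 8.69 and 8.59 on patterned gelatin (log2 -0.66 ± 0.13 and -0.62 ± 0.12). Itga10 read 16, 18 and 15.1 CPM on plastic, 11.3, 8.49 and 8.64 on unpatterned and 6.97, 7.82 and 8.78 on patterned gelatin (log2 -0.80 ± 0.16 and -1.05 ± 0.17). In these genes too the gelatin and plastic libraries did not overlap. Itga11, the other fibrillar collagen receptor subunit, was called on patterned gelatin (log2 -1.12 ± 0.24, adjusted p = 0.0145) and read -0.63 ± 0.23 on unpatterned gelatin (adjusted p = 0.0999). Itga3 and Tns1 were called on unpatterned gelatin, at -0.61 ± 0.13 and -0.56 ± 0.14, and read -0.35 ± 0.13 and -0.35 ± 0.13 on patterned gelatin (adjusted p = 0.145 and 0.16).

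Single libraries decided many of these calls. For unpatterned gelatin at day 4, Lims2 alone held without any 1 library. Zyx was lost without unpatterned replicate 2 (log2 -0.94, adjusted p = 0.0636) or replicate 3 (-0.93, 0.0634), Itga10 without plastic replicate 2 (-0.71, 0.0522) or unpatterned replicate 2 or 3, Itga3 without unpatterned replicate 2 or 3 (0.0568 and 0.055), and Tns1 without any plastic library or unpatterned replicate 2 or 3 (up to 0.0851). For patterned gelatin, Itga10 alone held, Zyx was lost without any 1 of the 6 libraries (adjusted p from 0.0628 to 0.189), and Itga11 (0.0969 and 0.0945) and Lims2 (0.0612 and 0.0731) were lost without plastic replicate 2 or patterned replicate 1. The count was 2 without unpatterned replicate 2 in the first comparison and 1 without plastic replicate 2 in the second. A fit of only the 6 libraries compared gave 4 higher and 13 lower on unpatterned and 2 higher and 11 lower on patterned gelatin. The share of all genes passing in these fits is not given, so these counts have no background beside them. The fibroblast markers summed to 354 to 362 TPM on unpatterned gelatin at day 4, against 271.5 to 289.6 on plastic and 270.5 to 318.5 on patterned gelatin. They did not move together. Means on unpatterned gelatin and on plastic were 232 and 167 TPM for Ly6a, 82.8 and 58.4 for Dcn and 3.25 and 2.56 for Pdgfra. Pdgfrb went the other way, at 38.5 and 51.4 TPM. The part of these markers in the differences was not tested. Ccn1 and Ccn2 were high in 1 library, unpatterned replicate 3 at day 4, with 193 and 245 CPM, whereas replicates 1 and 2 had 85.8 and 74.5 CPM of Ccn1 and 80.4 and 75.3 CPM of Ccn2. Ccn2 did not pass against plastic (log2 1.04 ± 0.32, adjusted p = 0.0502).

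**Figure D4:**
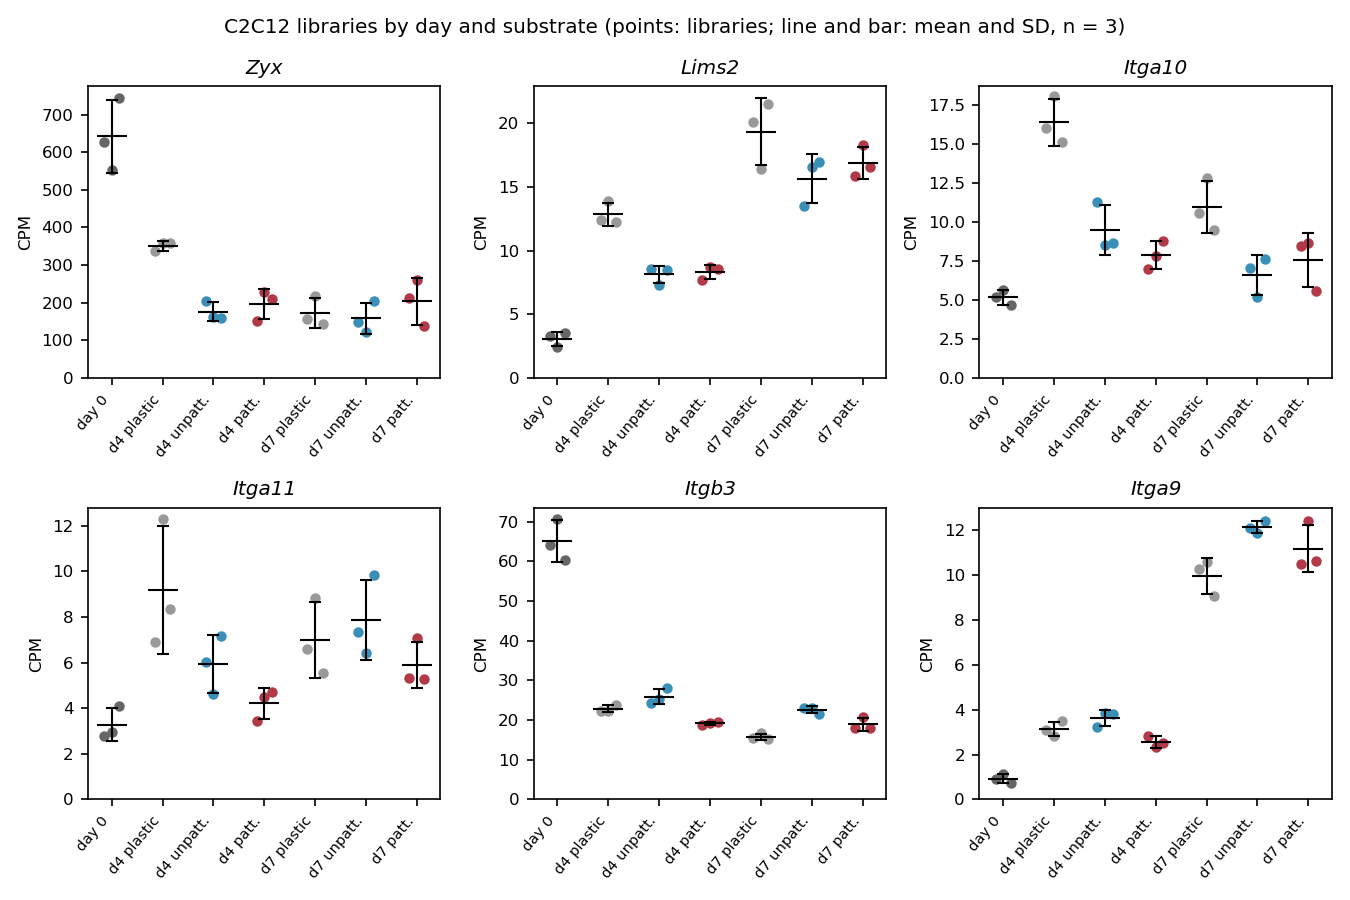
TMM-scaled CPM of Zyx, Lims2, Itga10, Itga11, Itgb3 and Itga9 in the 21 C2C12 libraries (points) by day and substrate, with the mean and SD of 3 libraries. At day 4 all gelatin libraries lie below all plastic libraries for Zyx, Lims2 and Itga10, and at day 7 all gelatin libraries lie above all plastic libraries for Itgb3.

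At day 7, 1 gene was higher (Itgb3) and 1 lower (Itga10) on unpatterned gelatin than on plastic, with 3.46% of all genes passing, 2.49% higher and 0.977% lower. On patterned gelatin 4 were higher and 5 lower, with 23.8% of all genes passing, 12.9% higher and 10.9% lower, so the share among these genes was near the background. Itgb3 read 15.5, 16.6 and 15.2 CPM on plastic, 23.1, 23.1 and 21.5 on unpatterned gelatin (log2 0.49 ± 0.08, adjusted p = 0.00148) and 18, 20.8 and 18.1 on patterned gelatin (0.23 ± 0.08, adjusted p = 0.0385). Itga10 was lower on both gelatins (log2 -0.75 ± 0.17 and -0.55 ± 0.17). Zyx, at 157, 219 and 144 CPM on plastic, 149.8, 121 and 203 on unpatterned and 212, 259 and 138 on patterned gelatin, passed in neither comparison (log2 -0.16 ± 0.22 and 0.19 ± 0.22). On patterned gelatin the adaptor Bcar1 (log2 0.51 ± 0.11, adjusted p = 0.00536), Src (0.37 ± 0.09) and the fibronectin receptor subunit Itga5 (0.33 ± 0.10) were higher, and Itga4 (-0.81 ± 0.21), Itgb8 (-0.75 ± 0.21), Itgb1 (-0.26 ± 0.08) and Itga6 (-0.25 ± 0.09) were lower. Of these 9 calls 3 held without any 1 library, those on Bcar1, Src and Itga4, and the count was 4 without plastic replicate 1 or patterned replicate 3. In the fit of the 6 libraries alone no gene was called. Marker genes moved with gelatin at day 7. On patterned gelatin Mki67 (log2 -1.48), Top2a (-0.67), Cdk1 (-0.52) and Birc5 (-0.54) of the 6 markers of dividing cells were lower, and the list summed to 65.6 to 83.9 TPM against 72.7 to 144.3 on plastic. The fibroblast marker Ly6a was higher on unpatterned (0.74) and patterned gelatin (0.52), and that list summed to 308 to 399.7 and 234 to 342 TPM against 172.9 to 270.3 on plastic. Dcn, Pdgfrb and Pdgfra were not called on patterned gelatin. Also called there were the muscle markers Myod1 (0.48) and Des (0.45) and the endothelial marker Egfl7 (0.85), all higher, and the blood cell marker Ptprc (-1.24), lower. The part of these markers in the differences was not tested. The call on Src came from gene counts, and in log2(TPM + 1) it stood at -0.027. On unpatterned gelatin Itga10 was lost without plastic replicate 2 (log2 -0.62, adjusted p = 0.0688) or unpatterned replicate 2 (-0.60, 0.106).

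The comparison of patterned with unpatterned gelatin asks what the grooves change. At day 4 none of the 40 genes passed the edgeR test, and DESeq2 called 1. An unadjusted p under 0.05 in edgeR was reached by 8 of the 40 and by 1281 of all 14844 genes. In all, 0.00674% of genes passed in edgeR. The lowest p belonged to Itgb3, which read 24.4, 25.3 and 28.1 CPM on unpatterned and 18.8, 19.2 and 19.6 on patterned gelatin without overlap (log2 -0.42 ± 0.08, adjusted p = 0.0665). Next were Ccn2 (log2 -1.18 ± 0.32, adjusted p = 0.179), where unpatterned replicate 3 was high, and Itga9 (log2 -0.49 ± 0.13, adjusted p = 0.186). At day 7 none passed in edgeR (0 by DESeq2), against 0.546% of all genes, 0.397% higher. Here 5 of the 40 genes and 2943 of all 14844 were at an unadjusted p under 0.05 in edgeR. Itgb3 again had the lowest p, at 23.1, 23.1 and 21.5 CPM on unpatterned and 18, 20.8 and 18.1 on patterned gelatin (log2 -0.26 ± 0.08, adjusted p = 0.11). Without patterned replicate 1 at day 7, 3 genes were called. The libraries on patterned gelatin at day 7 had the lowest median depth, 16.8 M counts.

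In primary cells, day 4 myotubes on patterned gelatin were compared with day 0 myoblasts. Of 41 genes tested, 9 were higher and 10 lower, with 42.6% of all genes passing, 20.2% higher and 22.4% lower. As the replicate numbers were taken to pair these cultures, a fit with the number as a block was also made. It called 14 higher and 16 lower with 57.7% of all genes passing. A fit without replicate 3, chosen after seeing the data, called 15 higher and 15 lower with 56.6% of all genes passing. Both alternatives called each of the 19 genes again. Without 1 library at a time 15 of the 19 calls held. Vasp was lost in 4 such fits (adjusted p up to 0.154), Amotl2 in 3 (up to 0.0696), Itga10 without day 4 replicate 2 (0.0623) and Lims2 without day 4 replicate 1 (0.0554). Dividing-cell markers summed to 30.2 to 71.2 TPM at day 4, against 240 to 339 at day 0, and their part in these changes was not tested.

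Among the genes that rose, Itgb1bp2 went from 4.9994, 3.67 and 4.6 CPM to 154, 182 and 142 CPM (log2 5.12 ± 0.45, adjusted p = 7.22e-05). Tead4 rose from 39.99, 36.1 and 37.4 CPM to 185, 222 and 182 CPM (log2 2.33 ± 0.14, adjusted p = 2.01e-05). In both genes the groups were far apart in every library. Itga7 (log2 1.47 ± 0.25), Itgb5 (1.38 ± 0.13), Lims2 (2.14 ± 0.56), Itga10 (1.64 ± 0.44), Wwtr1 (0.79 ± 0.14) and Fermt2 (0.78 ± 0.10) rose too. Tns1, whose protein tensin links β1 to actin, rose from 52.8, 58.8 and 55.4 CPM to 317, 409.9 and 241 CPM (log2 2.48 ± 0.25, adjusted p = 0.00014). Itgb1 was at 0.57 ± 0.21 and did not pass (adjusted p = 0.0543), but it did in the blocked fit (0.57, adjusted p = 0.00218).

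Among the genes that fell were the zyxin family and its partner. Zyx went from 586, 669.8 and 683 CPM to 122, 128 and 107 CPM (log2 -2.49 ± 0.15, adjusted p = 1.9e-05), Lpp fell by 2.03 and Vasp by 0.64 on the log2 scale. Src (-0.99 ± 0.14), the adaptor Bcar1 (-1.39 ± 0.29) and the parvin Parvb (-0.55 ± 0.11) fell as well. Of the YAP regulators and targets, Ccn1 fell from 406, 447 and 235 CPM to 76.4, 78.6 and 40.6 CPM (log2 -2.54 ± 0.33, adjusted p = 0.000425), Lats2 fell by 1.13 and Amotl2 by 0.82 on the log2 scale. Ccn2 went from 32.9 and 39 to 69.3 and 99.2 CPM in replicates 1 and 2 and from 12.4 to 3.06 CPM in replicate 3 (log2 0.95 ± 1.14, adjusted p = 0.538). It was called without replicate 3 (log2 1.19, adjusted p = 0.00349). The laminin receptor subunit Itga6 fell from 1242, 1257 and 542 CPM to 222, 223 and 121 CPM (log2 -2.49 ± 0.39, adjusted p = 0.00114), and within each replicate number the later library was the lower one.

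Itga9 and Itga4, of 1 integrin subfamily, set replicate 3 apart. Itga9 read 4.18, 2.18 and 0.36 CPM at day 0, 32.3, 33 and 1.55 at day 4 and 93.7, 109.7 and 6.1 at day 7, so replicate 3 was the lowest on each day and rose with the others. It did not pass between day 0 and day 4 (log2 3.24 ± 1.32, adjusted p = 0.0789) but was called in the blocked fit (3.15, adjusted p = 5.31e-05). Itga4 showed the opposite order, with replicate 3 the highest at 30.7, 17.2 and 45.7 CPM on day 0, 15.8, 16.8 and 109.7 on day 4 and 21.6, 23.9 and 74.7 on day 7. Between day 4 and day 7 none of the 41 genes passed in edgeR, with 0 by DESeq2 and 0% of all genes passing. An unadjusted p under 0.05 in edgeR was reached by 2 of the 41 (Vasp and Parvb) and by 666 of all 14352 genes. Without replicate 3, Itga9 (log2 1.66, adjusted p = 0.0166) and Vasp (-0.77, adjusted p = 0.0393) were called, against 0.855% of all genes.

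**Figure D5:**
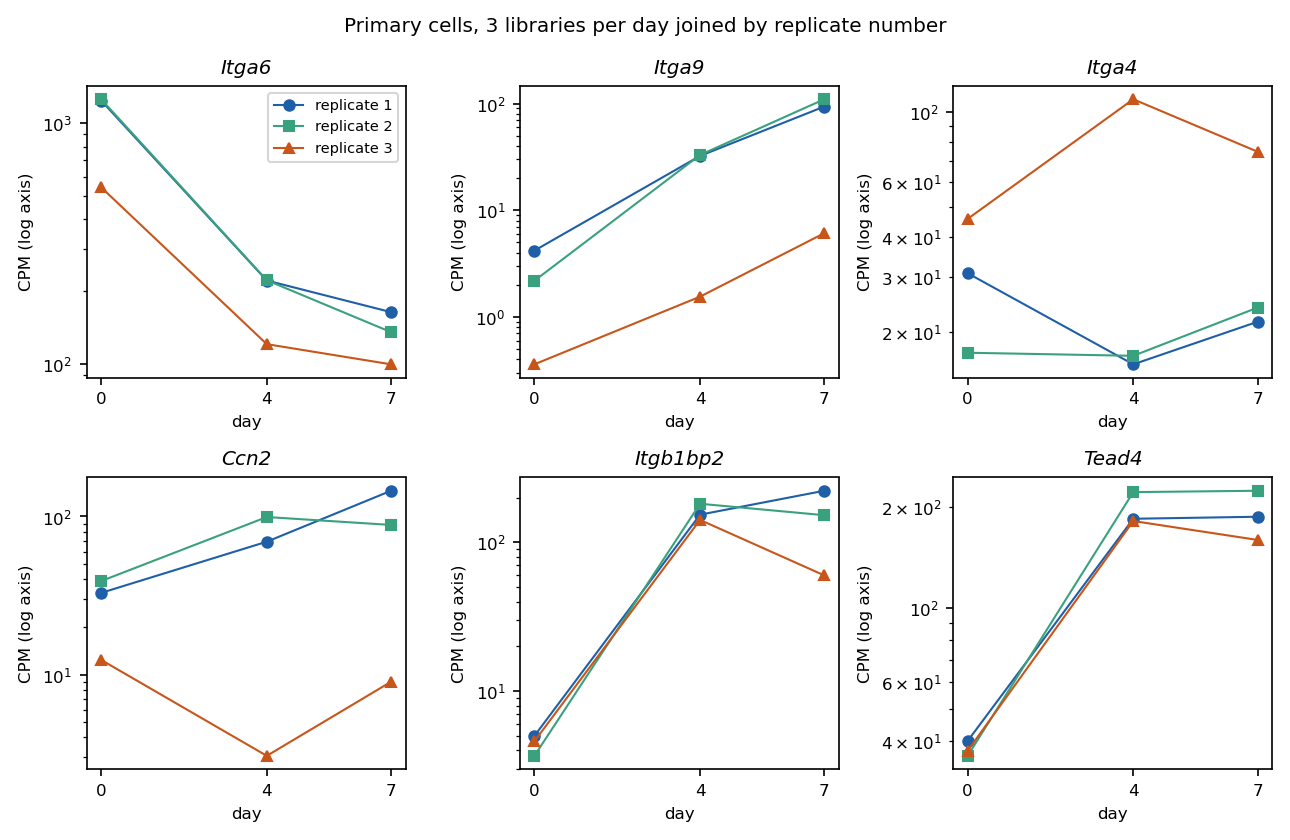
TMM-scaled CPM (log axis) of Itga6, Itga9, Itga4, Ccn2, Itgb1bp2 and Tead4 in primary cells at days 0, 4 and 7, with libraries of the same replicate number joined. Replicate 3 lies below the others for Itga6, Itga9 and Ccn2 and above them for Itga4, while all 3 replicates of Itgb1bp2 and Tead4 rise from day 0 to day 4.

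Primary and C2C12 cells were then compared on the same day, which does not make their stage of differentiation the same. At day 0 the cell type and the growth medium of the myoblasts cannot be told apart, which also holds for changes counted from day 0. At day 0, 13 of 41 genes were higher and 13 lower in primary myoblasts, with 57.5% of all genes passing, 29.6% higher. Itga6 had the largest positive difference (log2 3.38 ± 0.25, adjusted p = 4.26e-11), followed by Ccn1 (1.55 ± 0.28), Lats2 (1.24 ± 0.14), Bcar1 (1.13 ± 0.19), Itga1 (1.06 ± 0.36) and Pxn (1.0 ± 0.22). Amotl2 (0.97 ± 0.17), Yap1 (0.55 ± 0.11), Tead1 (0.96 ± 0.25) and Tead4 (0.79 ± 0.11) were higher too. Itgb3 had 2.55, 1.66 and 1.04 CPM in primary and 64.2, 70.8 and 60.3 CPM in C2C12 myoblasts (log2 -5.21 ± 0.24, adjusted p = 5.14e-15). Lims2 (-4.19 ± 0.33), Itga11 (-3.32 ± 0.36), Tns1 (-2.61 ± 0.20), Itga10 (-2.37 ± 0.30), Itgb5 (-1.56 ± 0.14), Itgb8 (-1.42 ± 0.36) and Itga3 (-1.39 ± 0.23) were lower in primary cells as well. The fibroblast markers summed to 395 to 423 TPM in C2C12 and 5.995 to 8.41 TPM in primary myoblasts. Thy1, with group means under 1 TPM, went the other way (log2 7.20). Markers of dividing cells were lower in primary myoblasts. Muscle markers summed to 1695 to 2244 TPM in C2C12 and 3045 to 4203 TPM in primary myoblasts. Among them Myod1 (log2 2.44), Myog (1.84) and Mymk (1.76) were higher, and Myf5 (-2.70) and Ckm (-2.98) lower. The part of all these markers in the differences was not tested.

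In myotubes on patterned gelatin, 8 genes were higher and 12 lower in primary cells at day 4 (50.6% of all genes passing, 25.7% higher), and at day 7 8 were higher and 15 lower (51.5%). At the 2 days Itgb3 stood at -3.66 ± 0.23 and -4.0 ± 0.24, Lims2 at -3.45 ± 0.26 and -3.39 ± 0.24 and Itga10 at -1.28 ± 0.27 and -1.76 ± 0.28 on the log2 scale, all called. Itga11 stood at -4.28 ± 0.39 at day 4, where primary libraries read 0.4, 0.198 and 0.0397 CPM, and at -6.25 ± 0.47 at day 7. Itga6 was higher on both days, by 0.90 ± 0.23 and 0.95 ± 0.23. Itgb5 was lower on both days (-0.76 ± 0.14 and -1.22 ± 0.14), as were Itgb8 (-1.44 ± 0.35) and Lims1 (-0.44 ± 0.11) at day 4 and Vasp (-0.94 ± 0.16) and Amotl2 (-0.73 ± 0.17) at day 7. Itga1 (1.79 ± 0.34 and 1.15 ± 0.35), Itgav (0.57 ± 0.13 and 0.87 ± 0.13), Tln2 (0.43 ± 0.15 and 0.90 ± 0.16) and Tead4 (0.29 ± 0.11 and 0.28 ± 0.11) were higher on both days, Src (0.48 ± 0.10) at day 4 and Ilk (0.43 ± 0.16) at day 7. Without 1 library at a time 15 of 20 calls held at day 4, where Tln2 and Tead4 were among those lost (adjusted p up to 0.0937 and 0.0986), and 12 of 23 at day 7, where Itga1 (without C2C12 replicate 2, 0.0529), Ilk (without C2C12 replicate 3, 0.157) and Tead4 (up to 0.0914) were. Tns1, lower at day 0, was at -0.22 ± 0.19 and -0.01 ± 0.19 and not called. Itga9 (3.12 ± 0.79 and 2.64 ± 0.75) and Itga4 (1.37 ± 0.53 and 1.83 ± 0.55) were higher on both days. For Itga9 primary replicate 3 lay far below primary replicates 1 and 2 on both days, so its difference came mainly from replicates 1 and 2. The call on Itga4 at day 4 was lost without any 1 of 4 libraries, reached -0.16 without primary replicate 3 (adjusted p = 0.778) and was also lost with the replicate block (0.21, adjusted p = 0.656). At day 7 it was lost without that day's replicate 3 (1.05, adjusted p = 0.113). Zyx was lower in primary myotubes on both days (-0.72 ± 0.21 and -0.98 ± 0.21), though at day 4 it was not called with the block (-0.64, adjusted p = 0.0547). At day 4, unscaled log2(TPM + 1) moved the median of all genes by -0.15 and gave 4 higher and 15 lower, and after scaling by TMM it gave 8 and 10.

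Whether the change from day 0 to day 4 on patterned gelatin differed between the cell types was tested as an interaction. It differed in 11 of 41 genes, 4 upwards and 7 downwards, with 20.5% of all genes passing, 9.87% upwards, and in 19 with the replicate block, with 29.3% passing. The difference was positive, a larger rise or smaller fall in primary cells, for Tns1 (log2 2.39 ± 0.27, adjusted p = 8.02e-07), Itgb3 (1.54 ± 0.32), Itga3 (1.32 ± 0.33) and Itgb5 (0.80 ± 0.19). It was negative for Itga6 (log2 -2.48 ± 0.33, adjusted p = 6.83e-06), Ccn1 (-1.85 ± 0.39), Amotl2 (-1.39 ± 0.23), Lats2 (-1.36 ± 0.20), Bcar1 (-1.20 ± 0.27), Vasp (-0.83 ± 0.22) and Tead4 (-0.50 ± 0.16). For Amotl2 the C2C12 libraries read 136, 145 and 125 CPM at day 0 and 203, 212 and 210.2 on patterned gelatin at day 4, whereas the primary libraries read 289.7, 292 and 216 and then 175, 179 and 115. For Lats2 they read 89.9, 90.5 and 85.4 and then 100.4, 113 and 111 in C2C12 cells, against 239, 235 and 153 and then 104, 109.6 and 83.6 in primary cells. In both genes the primary libraries started above all C2C12 libraries, and the groups moved in opposite directions. Of the 11 calls, Tead4 was lost without C2C12 patterned replicate 2 (log2 -0.43, adjusted p = 0.0575) or primary day 4 replicate 1 (-0.43, 0.052), and the other 10 held without any 1 library.

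The promoters of Ccn1 and Amotl2, both targets of YAP, hold the motif GGAATG, to which TEAD factors bind. In the RefSeq windows of 250 bases before to 50 bases after each start (GRCm38.p6), matched for 30 of the 42 genes in 38 windows, this motif on either strand was found for 9 genes: Amotl2, Ccn1, Itga10, Itgb1, Lats2, Lpp, Vcl, Wwtr1 and Yap1. It was found in 14.7% of all 32851 windows. No window was matched for Ccn2, so its promoter was not searched. Genes with the motif did not move together. In primary cells Ccn1, Amotl2, Lats2 and Lpp fell by day 4 and Wwtr1 rose, and in C2C12 cells on plastic Amotl2 rose. The part of the motif in these changes was not tested. The share of windows with GGAATG and those that follow count windows, while the members are counted as genes, some of them with several windows. The shares are therefore no direct background for the counts of genes. CAGCTG, an E-box of myogenic factors, was found for 6 genes and in 16.3% of windows, and the CArG box of serum response factor for Fermt2 and Vcl and in 1.63% of windows. Neither of these was found for Ccn1 or Amotl2. The stretches printed are the 250 bases before the start, shown for these targets so that the motif can be seen, in both cases as its reverse complement in capitals. In Ccn1 (minus strand) it spans bases -103 to -98 from the start, and in Amotl2 (plus strand) bases -65 to -60.
Ccn1 promoter, chr3:145649986-145650235: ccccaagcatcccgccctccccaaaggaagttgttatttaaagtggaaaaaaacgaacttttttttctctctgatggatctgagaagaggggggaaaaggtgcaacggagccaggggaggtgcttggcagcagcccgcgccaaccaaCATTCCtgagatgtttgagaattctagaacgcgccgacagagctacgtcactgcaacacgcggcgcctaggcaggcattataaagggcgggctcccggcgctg
Amotl2 promoter, chr9:102717554-102717803: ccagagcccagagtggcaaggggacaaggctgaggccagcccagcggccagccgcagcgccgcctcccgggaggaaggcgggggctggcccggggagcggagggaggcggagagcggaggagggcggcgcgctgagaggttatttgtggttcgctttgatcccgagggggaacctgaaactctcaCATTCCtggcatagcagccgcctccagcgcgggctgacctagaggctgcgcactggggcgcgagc

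Related gene lists were described in the same fits, and their counts stand beside the share of all genes passing in each comparison. Of 27 matrix ligands of integrins tested, 9 rose and 8 fell in C2C12 cells on plastic from day 0 to day 4 (58% of all genes), among them Spp1 (osteopontin, log2 -2.70) and Nid1 (-2.20) down and Postn (periostin, 1.99) up. From day 4 to day 7, 10 fell and none rose (14.8%). On patterned gelatin at day 7, 10 were higher than on plastic and 1 lower (23.8%), with Vcam1 (1.33), Col3a1 (1.01) and Postn (0.82) higher. In primary myoblasts 15 of the 27 were lower than in C2C12 and 3 higher (57.5%), with Col1a2 at -10.58, and at day 7 16 were lower and 3 higher (51.5%). Of 39 other focal adhesion and actin linker genes, 10 rose and 20 fell from day 0 to day 4 in C2C12 cells (58%), where Cav3 (5.53) and Flnc (4.67), both muscle genes, rose and Tes (-1.68) fell. At day 4, 8 of the 39 were lower on unpatterned gelatin and none was higher (7.89%), among them the vinculin partner Sorbs3 (-0.98, adjusted p = 4.72e-05). Of 19 other YAP and TEAD target genes, 6 rose and 7 fell in C2C12 cells between day 0 and day 4 (58%), and 3 rose and 7 fell in primary cells (42.6%). In the interaction, 2 of the 19 differed upwards and 6 downwards (20.5%), among the latter Arhgap29 (-1.74) and Tgfb2 (-1.56). Of 18 other Hippo pathway genes, 4 rose and 8 fell in C2C12 cells (58%) and 5 rose and 6 fell in primary cells (42.6%), and Lats1 and Mob1a fell in both. Among other integrin subunits, Itgb6 rose in both cell types (2.62 and 1.91), and Itgb4, the partner of α6 in hemidesmosomes, fell in both (-0.43 and -2.14). In primary cells Itgam, also in the list of blood cell markers, changed most (7.92), from a mean of 0 TPM at day 0 to 0.402 TPM at day 4. Itgb7 fell in C2C12 cells (-4.75) and was not called in primary cells.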

How the data were processed

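Paired-end RNAseq libraries (NEBNext kit, Illumina NextSeq) were deposited as 1 Kallisto table per library. The authors quantified reads against mm10 transcripts and deposited estimated counts per transcript, which are not whole numbers. They also deposited TPM values, scaled by effective transcript length to 1 M per library. For the Kallisto version and the transcript annotation: not given in the sources used here. Transcripts were summed to genes by GENCODE M21 (GRCm38): 86031 of 88198 matched, and the 2167 others, with 0.723% to 0.893% of counts, were left out. No column of per-sample values was left unused.

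Gene counts were rounded and tested with edgeR 4.0.16 (TMM, filterByExpr, quasi-likelihood F-test, Benjamini-Hochberg) in R 4.3.3. The 21 C2C12 libraries, the 9 primary libraries and all 30 were each fitted together, with 14844, 14352 and 15447 genes. SE was taken as the size of each log2 difference over the root of its F statistic. Printed CPM were TMM-scaled over all 30 libraries. Alternatives used DESeq2 1.42.0 and limma 3.58.1, and the fits were tested on simulated data. Groups came from the labels. In primary cells, same-numbered libraries deviated together (9 pairs, r from 0.206 to 0.778) and 8 of 9 were closest to their own number, so the numbers were taken to pair them. The methods name 3 mice but do not say whether each culture came from 1 mouse or from a pool. The main fit of the primary cells did not use this pairing. The authors prepared 3 separate cultures per condition, so p-values measure the spread between cultures, in C2C12 cells of 1 line. Up to 8 called members with the highest and 8 with the lowest log2 fold change were named per comparison, with their paralogs and the partners of Itgb1. Members named beyond these were chosen after their values were seen. Members and lists were chosen with earlier results of these data known. The fit without primary replicate 3 and the TPM scaled by TMM were added after seeing the data.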

Additional observations from a re-analysis of the deposited data

Results flagged for a closer look

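The change from day 0 to day 4 differed between primary and C2C12 cells by the interaction test in 11 genes, with log2 differences of 1.32 for Itga3, 1.54 for Itgb3, 0.80 for Itgb5, 2.39 for Tns1, -2.48 for Itga6, -1.20 for Bcar1, -0.83 for Vasp, -0.50 for Tead4, -1.39 for Amotl2, -1.36 for Lats2 and -1.85 for Ccn1. In 4 comparisons of 1 kind of gelatin with plastic, all libraries on that gelatin lay below the plastic libraries at day 4 and above them at day 7. Src stood at -0.18 at day 4 and 0.24 at day 7 on unpatterned gelatin, and at -0.25 and 0.37 on patterned gelatin. On patterned gelatin Itga5 stood at -0.23 and 0.33, and Itgb3 at -0.25 and 0.23. These differences between days were not tested, and no count of such genes among all genes stands beside them. Both kinds of gelatin were compared with the same plastic libraries of each day, so the 2 results on Src are not independent.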

How the results depend on the processing

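Counts of called members that moved by over 1.5 times were as follows, and the cause was not tested beyond the smaller number of libraries in some fits. For most alternative fits, here and above, the share of all genes passing is not given. The exceptions are the replicate block in primary day 4 and the interaction, and primary cells without replicate 3, whose shares stand above. With only the groups compared, the count was 17 and 13 for unpatterned and patterned gelatin at day 4, 1 and 0 at day 7, 1 for the pattern at day 4 and 14 for primary against C2C12 myotubes at day 7. DESeq2 gave 9 for unpatterned gelatin and 1 for the pattern at day 4. Log2(TPM + 0.1) gave 3 and 2 for unpatterned and patterned gelatin at day 4, and it and log2(TPM + 1) gave 0 for unpatterned gelatin at day 7, while log2(TPM + 1) scaled by TMM gave 7 for day 7 against day 4 on plastic. Without primary replicate 3, the count was 30 for day 4 and 2 for day 7 in primary cells. With the replicate block it was 30 for primary day 4, 19 for the interaction and 1 for the pattern at day 4. In C2C12 cells the numbers do not pair the libraries (63 pairs, r from -0.187 to 0.224, 7 of 21 closest to their own number). Without 1 library, counts ran from 4 to 12 for day 7 on plastic, from 2 to 6 and from 1 to 3 for unpatterned and patterned gelatin at day 4, from 1 to 2 and from 4 to 10 at day 7, and from 0 to 3 for the pattern at day 7. Among single genes, the direction turned for Src on patterned gelatin at day 7 (-0.027 in log2(TPM + 1) and -0.028 in log2(TPM + 0.1)) and for Itga4 in primary against C2C12 cells at day 4 (-0.16 without primary replicate 3 on every day, and -0.16 to 1.81 without 1 library). Uncalled values near 0 turned as well. In log2(TPM + 1), log2(TPM + 0.1) and its TMM-scaled form, C2C12 day 4 on plastic gave -0.66, -0.67 and -0.47 for Itga6 and -0.22, -0.22 and -0.020 for Tln1, the first 2 gave -0.19 and -0.19 for Ccn1, and the last gave 0.031 for Lims1. Itga7 at day 7 on plastic gave 0.13 and 0.13 in the first 2. Tns1 in primary against C2C12 cells at day 7 gave 0.021 with relative log expression factors, 0.021 with DESeq2, 0.066 with no filter, 0.13 in TMM-scaled TPM, 0.069 with the replicate block and 0.24 without primary replicate 3. Without 1 library, values ran from -0.0063 to 0.095 for Itga6 and -0.0078 to 0.11 for Tln1 at day 4, from -0.23 to 0.052 for Itga7, -0.053 to 0.078 for Itgb1bp2 and -0.0034 to 0.11 for Tead4 at day 7 on plastic, from -0.37 to 0.049 and -0.0014 to 0.38 for Zyx on unpatterned and patterned gelatin at day 7, and from -0.11 to 0.27 for Tns1. Itga2 and Itga8 lay too low to test in C2C12 cells, which limits what depth can show.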
